A study of Mus musculus with 8 samples.

Results

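The genes described here encode the subunits of the proteasome and the proteins that assemble, cap or inhibit it. They were taken from the array by name, as every gene whose symbol starts with Psm followed by a letter from a to g and a number and that has a probe set assigned to no other gene. Where a gene had several such probe sets, the one with the highest mean over the 8 arrays stood for it. This gave 49 of the 22180 genes on the array with a probe set of their own, and 46 of the 49 passed the filter on low values and were tested among 13308 genes. The 46 comprise 6 alpha ring subunits, 7 beta ring subunits, 2 inducible catalytic subunits, 17 subunits of the regulatory cap (6 ATPases and 11 others), 3 chaperones of the cap's base, 4 chaperones of the core, 4 activators and 1 inhibitor. The other 2, Psmc3ip and Psme3ip1, match by name alone: they are named after a proteasome protein that theirs binds and are not subunits. Psmb9, Psmb11 and Psma8 fell below the filter. Psma4, an alpha ring subunit, is on the array only through probe sets shared with AY074887 and is therefore not among the 49.

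The proteasome degrades proteins tagged with ubiquitin. Its core particle is a barrel of stacked alpha and beta rings with the catalytic sites inside, carried by Psmb5 (chymotrypsin-like), Psmb6 (caspase-like) and Psmb7 (trypsin-like). Interferon-responsive cells replace these with Psmb8, Psmb9 and Psmb10 to form the immunoproteasome. The regulatory cap binds, deubiquitinates, unfolds and feeds the substrate into the core, and in skeletal muscle this pathway carries out much of the protein breakdown of atrophy.

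The cells were C2C12 myotubes, derived by differentiation from a mouse myoblast line. The 4 groups of 2 arrays, called independent biological replicates in the series design, are myotubes with a retroviral shRNA against Baf60c (a BAF chromatin remodelling subunit, gene Smarcd3) at 10 mM glucose, the same cells at 1 mM glucose, myotubes with a retroviral control shRNA at 10 mM glucose, and the control cells at 1 mM glucose. Glucose was applied for 12 h, after differentiation in cells that already carried the virus, and all groups share the retroviral transduction and a single cell line. The labels name no clone, no selection and no glucose concentration before these 12 h.

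Values are log2 expression after the RMA method, which brings the arrays to a common distribution and summarizes the probes of a set as 1 value. A value describes 1 probe set across arrays and is not compared between genes. Replicates correlated across genes at r = 0.987 to 0.990, and the arrays' medians over all tested genes were between 5.89 and 6.02. The knockdown target is covered only by a probe set shared by Chpf2 and Smarcd3, which read 3.90 and 4.49 in Baf60c shRNA cells at 10 mM, 3.01 and 2.77 in Baf60c shRNA cells at 1 mM, 6.27 and 6.09 in control cells at 10 mM and 5.62 and 5.40 in control cells at 1 mM. That set was lower with the Baf60c shRNA at both glucose concentrations (log2 change -2.62 ± 0.22 SE, limma adjusted p = 0.00313, at 1 mM and -1.98 ± 0.22, adjusted p = 0.0171, at 10 mM). The myotube markers, 8 of 8 detected, averaged 9.37 and 9.45 in Baf60c shRNA cells at 10 mM, 8.37 and 8.47 in Baf60c shRNA cells at 1 mM, 10.23 and 10.37 in control cells at 10 mM and 9.64 and 9.73 in control cells at 1 mM. With glucose 8 of these were called higher in Baf60c shRNA cells and 4 in control cells, against 14.5% and 13.2% of all tested genes. With the knockdown 7 were called lower at 1 mM and 3 at 10 mM. Of all tested genes 1.49% and 1.12% were called there, in either direction. The 6 fibroblast markers averaged 6.95 and 7.05 in Baf60c shRNA cells at 10 mM, 5.72 and 5.89 in Baf60c shRNA cells at 1 mM, 6.98 and 7.22 in control cells at 10 mM and 5.79 and 5.99 in control cells at 1 mM, and 4 of 5 tested rose with glucose in Baf60c shRNA cells and 5 in control cells. The 6 markers of undifferentiated myoblasts averaged 6.36 to 6.69 but went both ways with glucose. In Baf60c shRNA cells Cd34 and Vcam1 rose and Hmga2 and Myf5 fell, and in control cells Cd34 rose and Hmga2 and Myf5 fell. The part of these markers in the results below was not tested. In such bulk RNA, fewer cells of a type and less RNA per cell cannot be told apart.

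Most proteasome genes gave no called change with glucose. In Baf60c shRNA cells, 10 mM against 1 mM glucose gave 1 member called higher and 4 called lower of 46, or 10.9%, at a limma adjusted p under 0.05, against 25.1% of all tested genes (14.5% higher and 10.6% lower). In control shRNA cells 1 member was called higher and 3 lower, or 8.70%, against 25.3% of all tested genes (13.2% higher and 12.1% lower). Psmc3 rose and Psme3, Psmg2 and Psma5 fell in both, and Psme3ip1 fell in Baf60c shRNA cells. Without Psma5, which is dim and described below, 4 of 45 members were called in Baf60c shRNA cells and 3 of 45 in control cells. With the variance prior fitted with a trend and robustly, 11 of 46 members were called in control cells, against 4095 of 13308 genes. The members' share in control cells lay closer to that of all tested genes in that fit. The adjusted p was computed over all 13308 genes, and ± after a change is its standard error (SE) with 2 arrays per group throughout. How many of all tested genes have their 10 mM arrays all above or all below the 1 mM arrays was not counted. Such separations are therefore given below as values only.

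The members' changes lay close to 0. The median log2 change was 0.10 in Baf60c shRNA cells, with a range of -1.22 to 0.66 (median of all tested genes 0.03), and -0.06 in control cells, with a range of -0.91 to 1.12 (all tested genes -0.01). The median absolute change was 0.20 over the members and 0.31 over all tested genes in Baf60c shRNA cells, and 0.24 over the members and 0.32 over all tested genes in control cells. A change past 2-fold was fitted for 1 member in each: Psma5, whose 10 mM values lay under the filter limit in the mean, in Baf60c shRNA cells, and Psme2, which was not called, in control cells.

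A gene without a call can still have changed, so the intervals matter. The 95% confidence interval of the glucose change, not adjusted for the number of genes, lay within 2-fold in either direction for 42 of 46 members (91.3%) in Baf60c shRNA cells and 41 (89.1%) in control cells, against 68.2% of all tested genes in each. Within 1.5-fold it lay for 25 members (54.4%) in Baf60c shRNA cells and 22 (47.8%) in control cells, against 27.7% of all genes. The members were measured somewhat more tightly than other genes, with a median replicate SD of 0.13 against 0.18 for all tested genes. At an unadjusted p under 0.05 stood 7 members (15.2%) in Baf60c shRNA cells, against 37.4% of all genes, and 13 (28.3%) in control cells, against 37.9% of all genes.

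**Figure D1:**
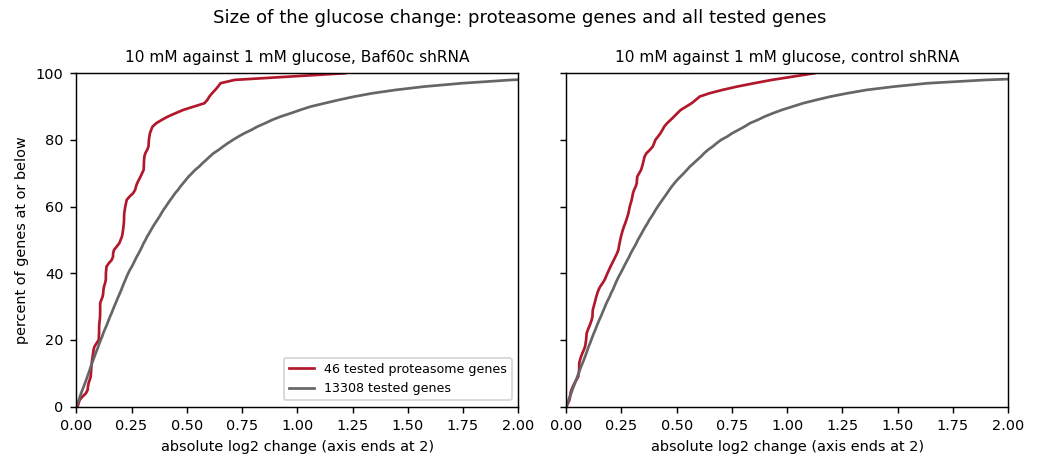
Percent of genes (vertical axis) whose absolute log2 change with glucose is at or below the value on the horizontal axis, for the 46 tested proteasome genes (red) and all 13308 tested genes (grey), in Baf60c shRNA cells (left) and control shRNA cells (right). The red line lies left of the grey one over most of its length, with medians of 0.20 against 0.31 on the left and 0.24 against 0.32 on the right.

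These counts rest on few arrays. Each fit below leaves 1 array in a group of the contrast, and in each of them fewer of all tested genes were called as well. The members, which had few calls to begin with, lost a larger share of theirs than all tested genes did in each of these fits. In Baf60c shRNA cells the 5 called members became 0 without the first 10 mM replicate, 1 without the second 10 mM replicate, 1 without the second 1 mM replicate and 3 without the first 1 mM replicate. In control cells the 4 became 0 without the second 1 mM replicate or without the first 10 mM replicate, 1 without the second 10 mM replicate and 2 without the first 1 mM replicate.

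**Figure D2:**
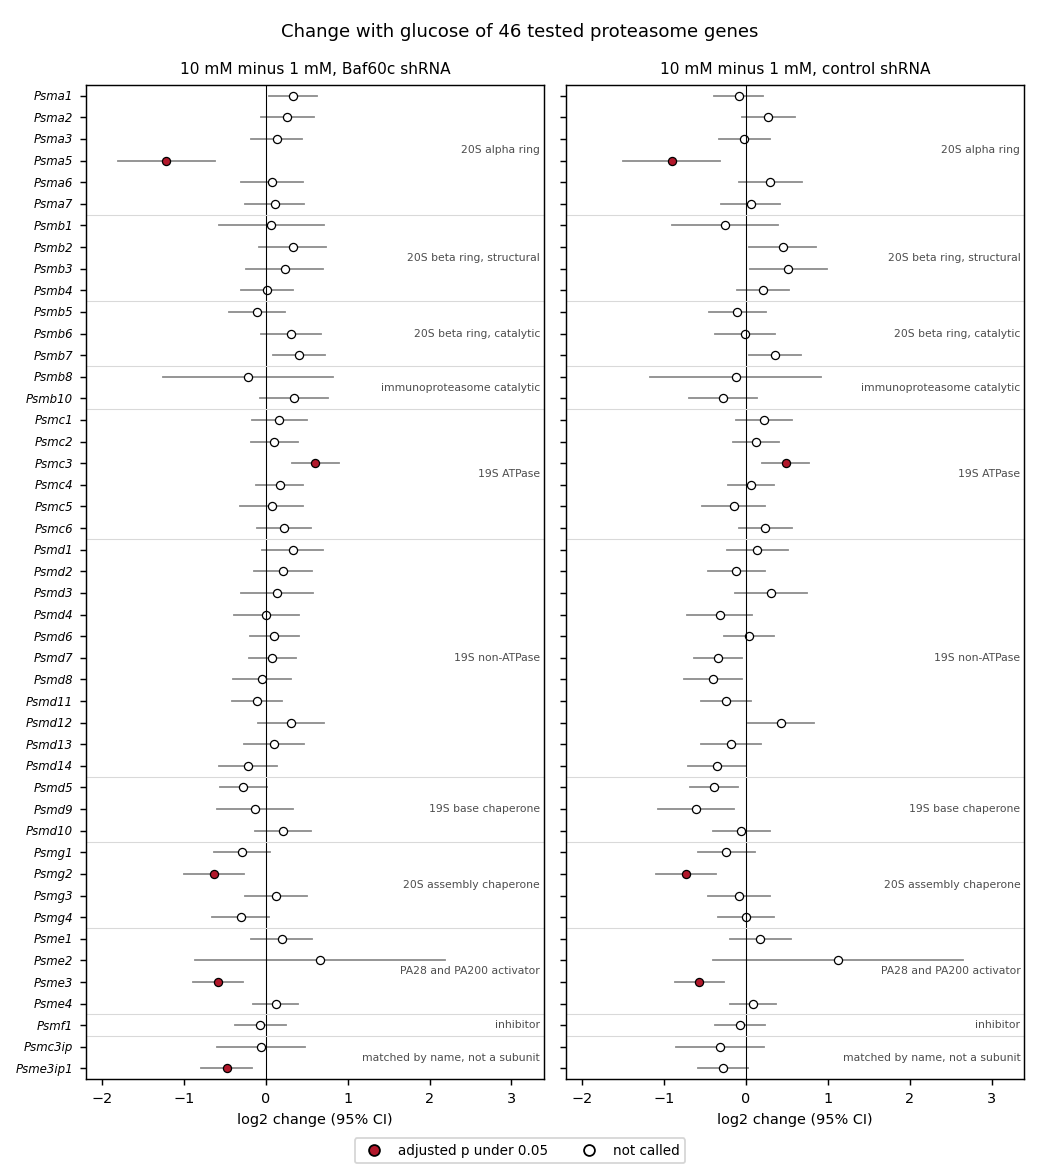
Log2 change at 10 mM against 1 mM glucose (horizontal axis, point) with its 95% confidence interval (bar) for the 46 tested members, grouped by role down the page, in Baf60c shRNA cells (left) and control shRNA cells (right), red where the adjusted p was under 0.05. Most points lie near 0, and the filled ones are Psma5, Psmc3, Psmg2 and Psme3 in both panels and Psme3ip1 on the left.

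Of the alpha ring, which forms the gate of the core, 6 members were tested. Psma5 fell with glucose and the other 5 were not called, with changes of 0.08 to 0.33 in Baf60c shRNA cells and -0.09 to 0.30 in control cells. Psma1 had the highest change of the ring in Baf60c shRNA cells (0.33 ± 0.13, adjusted p = 0.0977), against -0.09 ± 0.13 (adjusted p = 0.638) in control cells. Psma6 had the highest in control cells (0.30 ± 0.16, adjusted p = 0.226).

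Psma5 read 1.77 and 2.46 in Baf60c shRNA cells at 10 mM, 3.52 and 3.14 in Baf60c shRNA cells at 1 mM, 2.11 and 1.81 in control cells at 10 mM and 2.78 and 2.96 in control cells at 1 mM. All 4 arrays at 10 mM were below all 4 at 1 mM. Psma5 fell by 1.22 ± 0.25 on the log2 scale in Baf60c shRNA cells (adjusted p = 0.0117) and by 0.91 ± 0.25 in control cells (adjusted p = 0.0363). This probe set is dim: its values at 10 mM average 2.11 and 1.96, under the filter limit of 2.30 that its overall mean of 2.57 passed through the 1 mM arrays, so the size of the decrease is uncertain and no fold is given. Leaving out 1 array, the call held in 6 of 8 fits in Baf60c shRNA cells (adjusted p = 0.00935 to 0.0648) and in 4 of 8 in control cells (adjusted p = 0.0201 to 0.169). In control cells it was also lost with no filter (adjusted p = 0.0528), with the mean of the gene's probe sets (0.0845) and with the replicate number as a block (0.0569). The gene's other probe set read 2.21 to 2.91 on the 8 arrays and was not called (log2 change -0.26, adjusted p = 0.452, in Baf60c shRNA cells and -0.15, adjusted p = 0.682, in control cells). The calls for Psma5 therefore rest on 1 of 2 dim sets. Psma4 could be followed only in its brighter shared set, which read 8.74 to 9.23 over the 8 arrays and was not called in any of the 5 contrasts.

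None of the structural beta ring subunits was called in either shRNA group. Of these, Psmb2 had the highest change in Baf60c shRNA cells (0.33 ± 0.18, adjusted p = 0.221) and Psmb3 in control cells (0.52 ± 0.20, adjusted p = 0.105). The lowest were Psmb4 in Baf60c shRNA cells (0.02 ± 0.14, adjusted p = 0.945) and Psmb1 in control cells (-0.26 ± 0.28, adjusted p = 0.541). Replicates of Psmb1 spread with an SD of 0.34.

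The constitutive catalytic subunits were not called with glucose in either shRNA group, and 1 of the 3, Psmb7, was near the threshold. Psmb7 read 9.19 and 9.25 in Baf60c shRNA cells at 10 mM, 8.77 and 8.87 in Baf60c shRNA cells at 1 mM, 9.09 and 9.25 in control cells at 10 mM and 8.92 and 8.73 in control cells at 1 mM. All 4 values at 10 mM were above all 4 at 1 mM. Its change was 0.40 ± 0.14 in Baf60c shRNA cells (adjusted p = 0.0674) and 0.35 ± 0.14 in control cells (adjusted p = 0.103).

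Psmb6 read 7.81 and 8.07 in Baf60c shRNA cells at 10 mM, 7.78 and 7.48 in Baf60c shRNA cells at 1 mM, 8.14 and 8.12 in control cells at 10 mM and 8.17 and 8.13 in control cells at 1 mM. The 4 control arrays lay between 8.12 and 8.17, above all 4 Baf60c shRNA arrays. Its glucose change was 0.31 ± 0.16 in Baf60c shRNA cells (adjusted p = 0.195) and -0.02 ± 0.16 in control cells (adjusted p = 0.955). Psmb5 read 7.32 and 7.22 in Baf60c shRNA cells at 10 mM, 7.40 and 7.35 in Baf60c shRNA cells at 1 mM, 7.25 and 7.57 in control cells at 10 mM and 7.57 and 7.46 in control cells at 1 mM. The control arrays of Psmb5 overlap between glucose concentrations, and its change was -0.11 ± 0.15 in each shRNA group (adjusted p = 0.649 in Baf60c shRNA cells and 0.642 in control cells).

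The inducible counterparts gave no called change either. Psmb10, which takes the place of Psmb7, read 6.43 and 6.14 in Baf60c shRNA cells at 10 mM, 5.80 and 6.07 in Baf60c shRNA cells at 1 mM, 6.01 and 5.86 in control cells at 10 mM and 6.37 and 6.08 in control cells at 1 mM. Its glucose change was positive in Baf60c shRNA cells (0.35 ± 0.18, adjusted p = 0.201) and negative in control cells (-0.29 ± 0.18, adjusted p = 0.279). The difference between these changes, 0.64 ± 0.25, had the smallest p of the 46 members in that contrast and did not pass (adjusted p = 0.593).

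Psmb8, which takes the place of Psmb5, read 3.83 and 2.39 in Baf60c shRNA cells at 10 mM, 3.69 and 2.97 in Baf60c shRNA cells at 1 mM, 3.50 and 3.51 in control cells at 10 mM and 3.45 and 3.81 in control cells at 1 mM. Replicates of Baf60c shRNA cells were far apart, and the pooled replicate SD of 0.58 was higher than that of 98.2% of tested genes. Its glucose change was -0.22 ± 0.45 in Baf60c shRNA cells (adjusted p = 0.769) and -0.13 ± 0.45 in control cells (adjusted p = 0.865), an interval too wide to exclude a 1.5-fold change. Psmb9, which takes the place of Psmb6, was not tested. It read 2.60 and 2.20 in Baf60c shRNA cells at 10 mM, 1.84 and 2.45 in Baf60c shRNA cells at 1 mM, 2.77 and 2.07 in control cells at 10 mM and 2.32 and 1.56 in control cells at 1 mM. With no filter its glucose change was 0.25 ± 0.34 in Baf60c shRNA cells (adjusted p = 0.724) and 0.48 ± 0.34 in control cells (adjusted p = 0.431).

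Leukocytes carry abundant immunoproteasome, so their markers were read on the same arrays. All 8 leukocyte markers were on the array, and 4 of them (Adgre1, Csf1r, Itgam and Cd52) fell below the filter. The mean level of the 8 was 2.32 and 2.67 in Baf60c shRNA cells at 10 mM, 2.75 and 2.51 in Baf60c shRNA cells at 1 mM, 2.30 and 2.23 in control cells at 10 mM and 2.52 and 2.58 in control cells at 1 mM, near the filter limit on every array. With glucose, 2 of the 4 tested fell in Baf60c shRNA cells (Ptprc and Cd68), where 10.6% of all tested genes were called lower. In control cells 1 of the 4 fell (Fcer1g), against 12.1% of all tested genes. Fcer1g read 1.83 and 2.01 in control cells at 10 mM, under the filter limit of 2.30. Ptprc read 2.62 and 2.21 in Baf60c shRNA cells at 10 mM. The size of the decrease of these 2 dim genes is therefore uncertain.

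**Figure D3:**
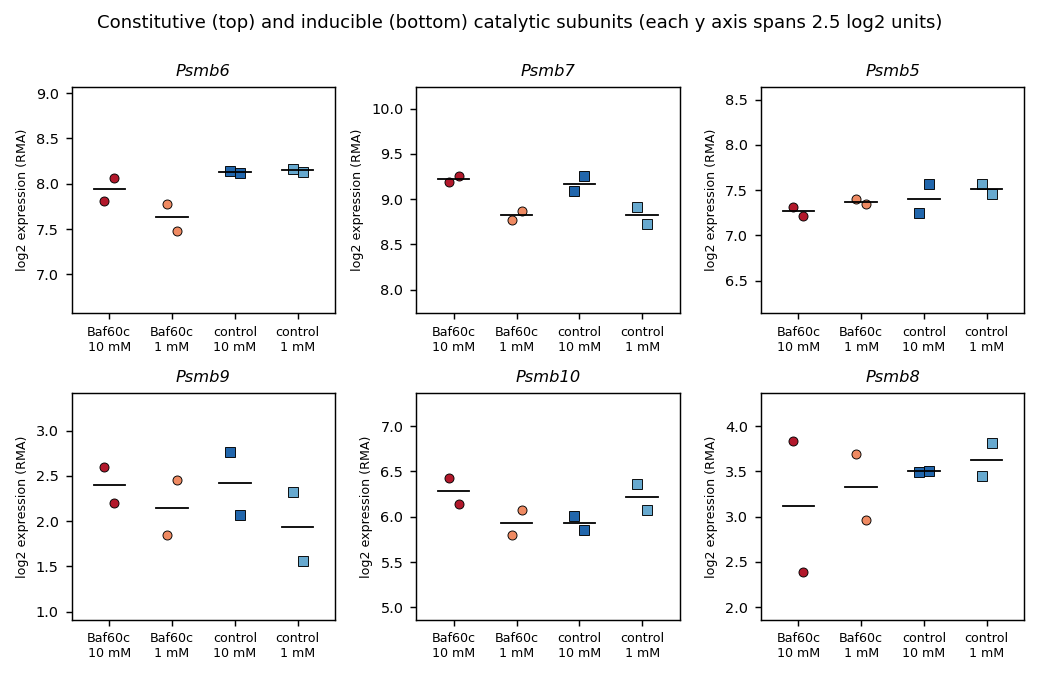
Log2 expression (vertical axes, each spanning 2.5 units) of the constitutive catalytic subunits Psmb6, Psmb7 and Psmb5 (top) and their inducible counterparts Psmb9, Psmb10 and Psmb8 (bottom), with 1 point per array and a line at the mean of each group along the horizontal axis. Psmb7 is higher on the 10 mM arrays, and the 2 Baf60c shRNA arrays at 10 mM read 3.83 and 2.39 for Psmb8.

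Of the 6 ATPases of the cap, which unfold the substrate, Psmc3 rose with glucose in both shRNA groups. Psmc3 read 8.23 and 8.28 in Baf60c shRNA cells at 10 mM, 7.70 and 7.60 in Baf60c shRNA cells at 1 mM, 8.38 and 8.29 in control cells at 10 mM and 7.81 and 7.90 in control cells at 1 mM. All 4 arrays at 10 mM were above all 4 at 1 mM. The increase was 0.61 ± 0.12 in Baf60c shRNA cells (adjusted p = 0.0108, 1.52-fold) and 0.48 ± 0.12 in control cells (adjusted p = 0.0267, 1.40-fold). The call in Baf60c shRNA cells held in 5 of 8 fits that left out 1 array (adjusted p = 0.0179 to 0.0666), and that in control cells in 2 of 8 (adjusted p = 0.0372 to 0.115). In the 7 other settings of the fit, the Psmc3 call held in all 7 in Baf60c shRNA cells and in 5 in control cells. There it was lost with no filter and in a fit of the 4 arrays alone. The other 5 ATPases were not called, with changes of 0.07 to 0.22 in Baf60c shRNA cells and -0.15 to 0.24 in control cells, the lowest of both being Psmc5.

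The 11 other subunits of the cap include the scaffolds, ubiquitin receptors and the deubiquitinase Psmd14, and 0 of them were called in either shRNA group. Their median change was 0.10 in Baf60c shRNA cells, where Psmd1, a scaffold subunit, was highest (0.33 ± 0.16, adjusted p = 0.184) and Psmd14 lowest (-0.22 ± 0.15, adjusted p = 0.350). In control cells the median was -0.19, with Psmd12 highest (0.43 ± 0.17, adjusted p = 0.114) and Psmd8 lowest (-0.40 ± 0.15, adjusted p = 0.0952). Psmd7, the partner of Psmd14, had opposite signs in the 2 shRNA groups without a call, at 0.08 ± 0.12 (adjusted p = 0.690) in Baf60c shRNA cells and -0.34 ± 0.12 (adjusted p = 0.0878) in control cells.

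The base chaperones, which join the ATPases into a ring and leave the finished cap, were not called in either shRNA group. Psmd5 read 8.12 and 8.11 in Baf60c shRNA cells at 10 mM, 8.41 and 8.37 in Baf60c shRNA cells at 1 mM, 8.20 and 8.13 in control cells at 10 mM and 8.64 and 8.48 in control cells at 1 mM. All 4 arrays at 10 mM were below all 4 at 1 mM, and the change was -0.27 ± 0.12 in Baf60c shRNA cells (adjusted p = 0.155) and -0.39 ± 0.12 in control cells (adjusted p = 0.0569). Psmd9 read 5.91 and 5.97 in Baf60c shRNA cells at 10 mM, 6.34 and 5.81 in Baf60c shRNA cells at 1 mM, 5.68 and 5.67 in control cells at 10 mM and 6.13 and 6.44 in control cells at 1 mM. Its concentrations overlapped in Baf60c shRNA cells and not in control cells, with changes of -0.14 ± 0.20 (adjusted p = 0.666) in Baf60c shRNA cells and -0.61 ± 0.20 (adjusted p = 0.0615) in control cells. Psmd10 (gankyrin) had the highest change of the 3, 0.21 ± 0.15 (adjusted p = 0.343) in Baf60c shRNA cells and -0.06 ± 0.15 (adjusted p = 0.809) in control cells.

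Of the 4 chaperones that assemble the alpha ring of the core, Psmg2 fell with glucose in both shRNA groups. Psmg2, which pairs with Psmg1, read 7.25 and 7.30 in Baf60c shRNA cells at 10 mM, 7.87 and 7.96 in Baf60c shRNA cells at 1 mM, 7.19 and 7.46 in control cells at 10 mM and 7.92 and 8.21 in control cells at 1 mM. All 4 arrays at 10 mM were below all 4 at 1 mM. It fell by 0.64 ± 0.16 on the log2 scale in Baf60c shRNA cells (adjusted p = 0.0234) and by 0.74 ± 0.16 in control cells (adjusted p = 0.0132, 1.67-fold lower). Leaving out 1 array, the call held in 4 of 8 fits in Baf60c shRNA cells (adjusted p = 0.0249 to 0.110) and in 6 of 8 in control cells (adjusted p = 0.0213 to 0.0754). A second Psmg2 probe set read 1.07 to 1.82 on all arrays. Averaged with it, the change in control cells was -0.35 and lost its call (adjusted p = 0.160).

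Its partner Psmg1 read 5.56 and 5.76 in Baf60c shRNA cells at 10 mM, 6.04 and 5.86 in Baf60c shRNA cells at 1 mM, 5.31 and 5.54 in control cells at 10 mM and 5.67 and 5.67 in control cells at 1 mM. Psmg1 was lower at 10 mM on every array of each shRNA group but was not called, at -0.29 ± 0.15 (adjusted p = 0.200) in Baf60c shRNA cells and -0.24 ± 0.15 (adjusted p = 0.276) in control cells. Psmg3, with 0.12 ± 0.16 (adjusted p = 0.633) in Baf60c shRNA cells, and Psmg4, with -0.00 ± 0.15 (adjusted p = 0.997) in control cells, had the highest changes of the 4 and were not called.

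Among the activators, which cap the core without ubiquitin recognition, Psme3 fell with glucose. Psme3 encodes PA28 gamma, a nuclear activator. It read 6.77 and 6.87 in Baf60c shRNA cells at 10 mM, 7.33 and 7.48 in Baf60c shRNA cells at 1 mM, 6.82 and 6.89 in control cells at 10 mM and 7.37 and 7.48 in control cells at 1 mM. All 4 arrays at 10 mM were below all 4 at 1 mM. Psme3 fell by 0.59 ± 0.13 on the log2 scale in Baf60c shRNA cells (adjusted p = 0.0148) and by 0.57 ± 0.13 in control cells (adjusted p = 0.0167). Its call held in all 7 other settings of the fit in each shRNA group and in 5 of 8 fits that left out 1 array in each (adjusted p = 0.0242 to 0.0925 in Baf60c shRNA cells and 0.0231 to 0.0860 in control cells).

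Psme2, a subunit of the interferon-inducible PA28 activator, read 5.21 and 5.82 in Baf60c shRNA cells at 10 mM, 3.90 and 5.81 in Baf60c shRNA cells at 1 mM, 5.70 and 5.79 in control cells at 10 mM and 5.33 and 3.91 in control cells at 1 mM. One array of each 1 mM group was low by more than 1 log2 unit. Its change was 0.66 ± 0.65 in Baf60c shRNA cells (adjusted p = 0.513) and 1.12 ± 0.65 in control cells (adjusted p = 0.251), and its replicate SD of 0.87 was above that of 99.8% of tested genes. A brighter set shared with 9930111J21Rik1 and 9930111J21Rik2 read 6.52 to 7.33 and was not called. Its change was 0.34 in Baf60c shRNA cells and -0.37 in control cells, the latter opposite in sign to that of the set used. The other 2 activators, with changes of 0.12 and 0.19 in Baf60c shRNA cells and 0.08 and 0.17 in control cells, were not called. The inhibitor Psmf1 was not called, with a change of -0.07 ± 0.13 in both shRNA groups.

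Psme3ip1, whose protein binds PA28 gamma, is a match by name. It read 8.05 and 8.01 in Baf60c shRNA cells at 10 mM, 8.40 and 8.62 in Baf60c shRNA cells at 1 mM, 8.17 and 8.18 in control cells at 10 mM and 8.40 and 8.51 in control cells at 1 mM. It fell by 0.48 ± 0.13 on the log2 scale in Baf60c shRNA cells (adjusted p = 0.0347, called in 1 of 8 fits that left out 1 array), against -0.28 ± 0.13 in control cells (adjusted p = 0.164). Psmc3ip, a meiotic recombination factor, was not called, at -0.05 ± 0.23 (adjusted p = 0.891) in Baf60c shRNA cells and -0.32 ± 0.23 (adjusted p = 0.352) in control cells.

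**Figure D4:**
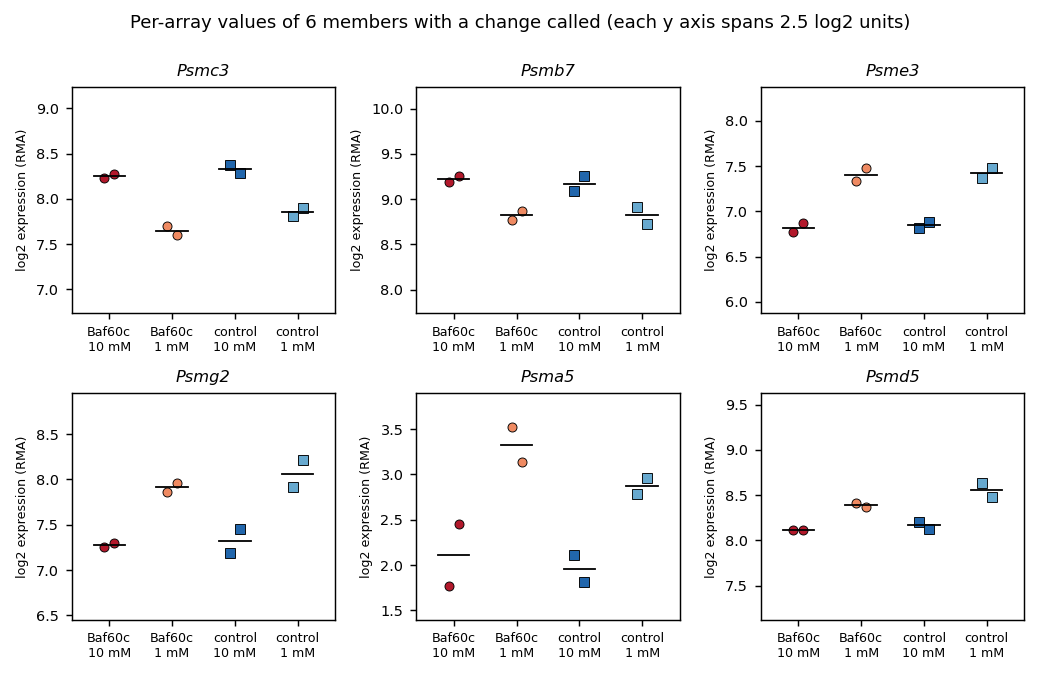
Log2 expression (vertical axes, each spanning 2.5 units) of 6 members with a called glucose change, in an shRNA group of its own or averaged over both, with 1 point per array and a line at the mean of each group along the horizontal axis. In every panel the 4 arrays at 10 mM lie on 1 side of the 4 at 1 mM, above for Psmc3 and Psmb7 and below for Psme3, Psmg2, Psma5 and Psmd5. The panels were picked among called members, so this separation is no support beyond the calls. Psmb2, called in the average and not shown, overlapped, with 7.32 on 1 Baf60c shRNA array at 1 mM and 7.20 on 1 control array at 10 mM.

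The direction of the glucose change was shared between the shRNA groups, which have no array in common, about as often as for other genes. It had the same sign in 34 of 46 members (73.9%), against 76.8% of all tested genes. Across members, the 2 changes correlated at Pearson r = 0.78, against 0.83 across all tested genes (genes are not independent replicates). Averaged over both shRNA groups, a contrast added after the data were seen, 4 members rose and 5 fell (19.6%), against 39.1% of all tested genes (21.3% higher and 17.8% lower). Beside the 5 genes above, these were Psmb7 (0.38 ± 0.10, adjusted p = 0.0177), Psmb2 (0.39 ± 0.12, adjusted p = 0.0422), Psmd12 (0.37 ± 0.12, adjusted p = 0.0483) and Psmd5 (-0.33 ± 0.09, adjusted p = 0.0206).

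Baf60c knockdown gave no called member. At 1 mM glucose 0 of 46 were called by limma, against 1.49% of all tested genes, and 3 members (6.52%) had an unadjusted p under 0.05, against 15.9% of all genes. At 10 mM 0 were called, against 1.12% of all tested genes, and 1 member (2.17%) had an unadjusted p under 0.05, against 13.6% of all genes. The intervals lay within 2-fold in either direction for 43 members at 1 mM and 44 at 10 mM. Averaged over both concentrations, 0 members were called, against 4.31% of all tested genes, with 4 at an unadjusted p under 0.05.

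The 3 smallest p-values at 1 mM were those of Psmd7, Psmb6 and Psmg4. Psmd7 read 9.19 and 9.16 in Baf60c shRNA cells at 10 mM, 9.03 and 9.16 in Baf60c shRNA cells at 1 mM, 9.12 and 9.24 in control cells at 10 mM and 9.54 and 9.51 in control cells at 1 mM, so the control arrays at 1 mM stood above the other 6. Its knockdown change at 1 mM was -0.43 ± 0.12 (adjusted p = 0.164), that of Psmb6 was -0.52 ± 0.16 (adjusted p = 0.173) and that of Psmg4 was 0.43 ± 0.15 (adjusted p = 0.226). Psmd7 and Psmb6, or 2 of 46 members, were called lower when the variance prior was fitted with a trend and robustly. That setting called 598 of all 13308 tested genes at 1 mM, a like share. At 10 mM the smallest was Psma1, with 0.36 ± 0.13 (adjusted p = 0.285), followed by Psmb10 (0.35 ± 0.18, adjusted p = 0.455) and Psmg1 (0.23 ± 0.15, adjusted p = 0.562).

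Without a call, the change at 1 mM was below 0 for 31 of 46 members and for 14 of the 17 cap subunits, whose median was -0.16, and it was below 0 for 7242 of all 13308 tested genes. The median of the 46 was -0.10 against -0.03 for all tested genes. At 10 mM the change was below 0 for 24 members, for 11 cap subunits and for 6453 of all tested genes, and the median of the 46 was -0.00 against 0.01 for all genes. The difference between the glucose changes of Baf60c shRNA and control cells was called for 0 of 46 members and for 0% of all tested genes, and 3 members (Psmb10, Psmd7 and Psma1) had an unadjusted p under 0.05, against 7.88% of all genes.

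**Figure D5:**
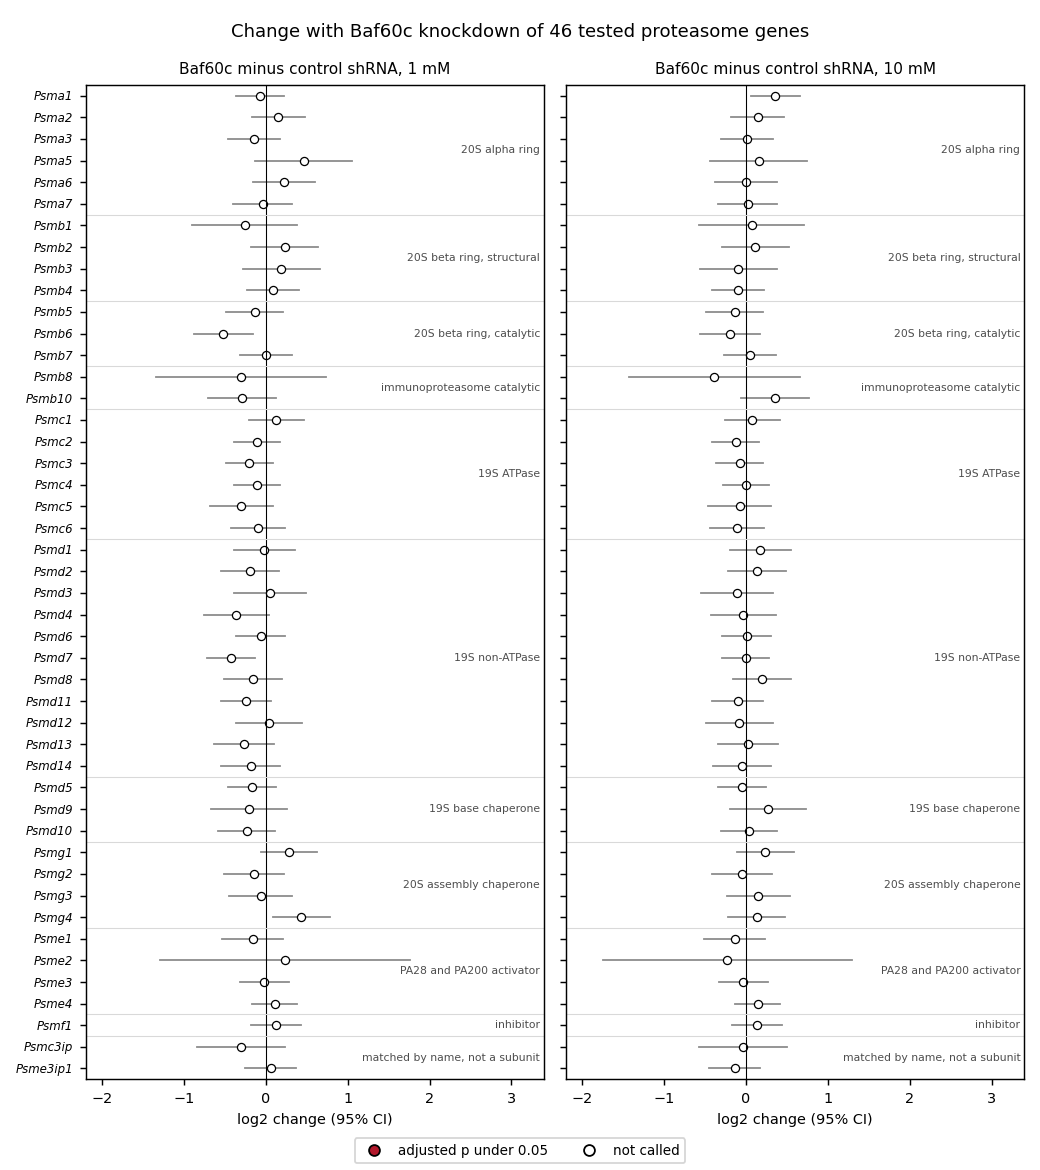
Log2 change in Baf60c shRNA against control shRNA cells (horizontal axis, point) with its 95% confidence interval (bar) for the 46 tested members, grouped by role down the page, at 1 mM (left) and 10 mM glucose (right). No point is filled, since 0 members were called at either concentration.

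Genes that work with the proteasome were read from lists chosen with earlier results of these data known. The glucose contrasts called 25.1% of all tested genes in Baf60c shRNA cells and 25.3% in control cells. Of other subunits and assembly factors, 8 of 12 had a probe set of their own, and 0 were called in either glucose contrast. Proteasome-bound deubiquitinases and ligases (4 of 4) and the p97 unfoldase with its cofactors (8 of 9) also had 0 called in either glucose contrast. In the glucose average, which called 39.1% of all tested genes, 1 of 8 other subunits and assembly factors (Txnl1) and 1 of 4 deubiquitinases and ligases (Ube3c) fell. Of the 8 genes of p97 and its cofactors, Ufd1, Nploc4 and Faf2 fell and Ubxn7 rose. Of 4 shuttle receptors, which carry ubiquitinated proteins to the cap, Ubqln4 fell in both shRNA groups. That is 25% of the list in each, about the share of all tested genes. Ubqln4 changed by -0.86 ± 0.15 in Baf60c shRNA cells (adjusted p = 0.00505) and by -0.56 ± 0.15 in control cells (adjusted p = 0.0287). Of the 6 genes for ubiquitin and its activation only Uba6 had a probe set of its own, and it was not called. The knockdown and interaction contrasts called 0 genes of these lists and of the lists described next.

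NRF1 (gene Nfe2l1), a factor that raises proteasome gene transcription when the proteasome is inhibited, acts with small Maf partners on antioxidant-type elements, and Bach1 competes at such elements. Of its list of 8, 3 fell in Baf60c shRNA cells (37.5%, against 10.6% of all tested genes called lower) and 3 in control cells (37.5%, against 12.1%). None of the 8 was called higher, against 14.5% of all tested genes in Baf60c shRNA cells and 13.2% in control cells. Mafg read 5.55 and 5.57 in Baf60c shRNA cells at 10 mM, 6.33 and 6.66 in Baf60c shRNA cells at 1 mM, 5.41 and 5.86 in control cells at 10 mM and 6.72 and 6.91 in control cells at 1 mM. It fell by 0.94 ± 0.19 on the log2 scale in Baf60c shRNA cells (adjusted p = 0.0108) and by 1.18 ± 0.19 in control cells (adjusted p = 0.00446).

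Mafk fell by 1.11 ± 0.22 on the log2 scale in both groups (adjusted p = 0.00899 in Baf60c shRNA cells and 0.00949 in control cells). Nfe2l1 read 8.76 and 8.82 in Baf60c shRNA cells at 10 mM, 9.24 and 9.26 in Baf60c shRNA cells at 1 mM, 8.79 and 9.05 in control cells at 10 mM and 9.35 and 9.27 in control cells at 1 mM. It fell by 0.46 ± 0.13 on the log2 scale in Baf60c shRNA cells (adjusted p = 0.0442), against -0.39 ± 0.13 in control cells (adjusted p = 0.0724). Bach1 was not called in Baf60c shRNA cells (-0.19 ± 0.16, adjusted p = 0.456) and fell by 0.81 ± 0.16 on the log2 scale in control cells (adjusted p = 0.0115).

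The promoters of the members were searched for the element these factors bind and for the CCAAT box, since proteasome promoters are known for both. RefSeq promoter windows, 250 bases before to 50 after the start on GRCm38.p6, matched 41 of the 49 members, and Psma8, Psmb1, Psmb2, Psmb7, Psmc3, Psmd3, Psmd7 and Psmg2 had none. TGACNNNGC, sought on both strands, lay in 6 of the 41 windows (14.6%), against 3781 of the 27025 genes with a window, a like share. The 6 were Psmb5, Psmb6, Psmc6, Psmd9, Psmd12 and Psme4. CCAAT on either strand lay in 16 of 41 (39.0%), against 41.1% of all. The 3 matches that have 20 bases upstream of the start on either side follow as examples, 5′ to 3′ along the gene, with the match in capitals.
Psmb5, chr14:54618014-54618062, minus strand: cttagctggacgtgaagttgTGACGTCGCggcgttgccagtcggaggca
Psmc6, chr14:45329577-45329625, plus strand, with the match on the opposite strand: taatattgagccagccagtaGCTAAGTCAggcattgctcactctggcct
Psmd9, chr5:123228139-123228187, plus strand: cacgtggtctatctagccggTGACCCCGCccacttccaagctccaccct
The matches start 47, 227 and 31 bases before the start of Psmb5, Psmc6 and Psmd9. None of these 3 genes was called with glucose in either shRNA group.

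Psme3, called lower in both shRNA groups, has no TGACNNNGC in its window, and its CCAAT match is on the opposite strand 14 bases before the start. The 250 bases upstream of its start follow, with that match in capitals.
Psme3, chr11:101315963-101316212, plus strand: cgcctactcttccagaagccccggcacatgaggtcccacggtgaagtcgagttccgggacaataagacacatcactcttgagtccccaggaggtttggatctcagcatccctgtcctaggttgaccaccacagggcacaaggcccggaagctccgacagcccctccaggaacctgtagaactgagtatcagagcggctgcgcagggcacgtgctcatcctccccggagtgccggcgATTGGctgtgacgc

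Class I antigen presentation uses immunoproteasome products, and 9 of the 11 genes listed for it and its regulators had a probe set of their own, with 8 tested. With glucose 2 of the 8 were called in Baf60c shRNA cells (against 25.1% of all tested genes) and 3 in control cells (against 25.3%). Tap1, Tap2, B2m, H2-K1 and Erap1 were called in neither, with changes of -0.80 (Tap1) to 0.19 (Tap2) in Baf60c shRNA cells and -0.06 (H2-K1) to 0.55 (Tap2) in control cells. Irf1, an interferon-induced activator of immunoproteasome genes, read 5.94 and 5.94 in Baf60c shRNA cells at 10 mM, 4.56 and 4.84 in Baf60c shRNA cells at 1 mM, 5.74 and 5.92 in control cells at 10 mM and 5.03 and 4.86 in control cells at 1 mM. It rose by 1.24 ± 0.15 in Baf60c shRNA cells (adjusted p = 0.0012) and by 0.88 ± 0.15 in control cells (adjusted p = 0.00535), with no overlap between concentrations. Tapbp (tapasin), a chaperone of peptide loading, rose by 0.56 ± 0.15 in Baf60c shRNA cells (adjusted p = 0.0346) and by 0.66 ± 0.15 in control cells (adjusted p = 0.0184). Nlrc5, an activator of class I genes, read 2.87 and 2.03 in Baf60c shRNA cells at 10 mM, 2.79 and 2.68 in Baf60c shRNA cells at 1 mM, 2.01 and 2.27 in control cells at 10 mM and 3.70 and 4.19 in control cells at 1 mM. It was not called in Baf60c shRNA cells (-0.28 ± 0.29, adjusted p = 0.530) and fell in control cells (adjusted p = 0.00436). Both control values at 10 mM lie under the filter limit of 2.30, so the size of that decrease is uncertain.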

How the data were processed

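Expression of 8 arrays was deposited by the authors as log2 values for 41345 probe sets, which, per the submitters' processing notes, were made with affy and RMA. Versions, array build and filters are not given in the sources used here. RMA shrinks differences of dim probe sets and cannot show a change shared by all genes. Names come from the array platform's annotation table (23521 with 1 gene, 1814 with several, 16010 with none), the highest-mean set stood for a gene, and genes below the 40th percentile of the mean (2.30) were left out. The number of arrays limits the precision.

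The log2 values were fitted with limma 3.58.1 in R 4.3.3 (1 mean per group over all 8 arrays, 4 residual and 3.36 prior degrees of freedom, two-sided) and adjusted by Benjamini-Hochberg over 13308 genes. Fits were tested on simulated data. Members, lists and tests were chosen with earlier results of these data known. Named genes are the catalytic pairs in every contrast, called members (up to 8 per direction), the 3 smallest p where under 3 were called, the highest and lowest change per role and glucose contrast, and up to 4 called genes per list; Psma4, Psma8 and Psmb11 are named to account for them. Filters, variance prior, probe set rule, centring, arrays used and omission of each array were varied. The 2 glucose contrasts share no array, while each knockdown contrast shares arrays with both. RefSeq promoters are of GRCm38.p6, and no array coordinates were used.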

Additional observations from a re-analysis of the deposited data

How the results depend on the processing

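Of 3120 values of 31 named genes under alternatives, 0 changed the sign of a called value, and 160 changed sign where neither value was called, 140 of these leaving out 1 array. Over all genes, glucose in control cells gave 3372 calls, against 2852 of 22180 genes with no filter and 3452 with the 60th percentile filter, which keeps fewer genes. The mean of a gene's probe sets gave 3278 and a trended, robust variance prior 4095. In Baf60c shRNA cells these counts were 3342, 2779, 3384, 3265 and 4010 in the same order. The members called with glucose in control cells numbered 4, against 2 with no filter, 7 with a filter at the 60th percentile, 2 with the mean of a gene's probe sets and 11 with a trended, robust variance prior. Leaving out 1 array gave 0 to 5. In Baf60c shRNA cells the 5 calls were 4 to 6 in the other settings and 0 to 4 leaving out 1 array. The trended, robust prior called 11 of 46 members and 4095 of 13308 genes in control cells. The main fit called 4 members and 3372 genes there, so the size of the gap in control cells depends on the prior. In Baf60c shRNA cells that prior called 6 of 46 members and 4010 of 13308 genes, against 5 and 3342 in the main fit. Knockdown at 1 mM gave 0, but 2 with the trended, robust prior. The averages over shRNA groups or concentrations were chosen after seeing the data: glucose gave 9, 15 with that prior and 5 to 11 leaving out 1 array, and knockdown gave 0 and 1 with that prior. With the replicate number as a block the glucose calls were 5 in Baf60c shRNA cells and 3 in control cells, and 0 in the knockdown contrasts; same-numbered arrays deviated together at r = -0.038 to 0.108 and are not treated as pairs. Over all genes the count of calls varied as well. Knockdown at 1 mM gave 198, against 598 with the trended, robust prior and 437 with the stricter filter. A fit of the 4 arrays alone gave 18, and leaving out any 1 array gave fewer than 198. Knockdown at 10 mM gave 149, against 467, 291 and 6 in the same order, 69 with no filter and 73 with the block. Leaving out any 1 array gave fewer than 149. The knockdown average gave 573, against 1120 with that prior and 210 to 386 leaving out 1 array, and glucose gave 3342 in Baf60c shRNA cells and 3372 in control cells, against at least 1903 and 2046 leaving out 1 array. The interaction gave 0, and 1 gene with that prior. The glucose average gave 5203 genes, and 5714 with that prior. Dim probe sets, among them Psma5, Psmb9 and Nlrc5, limit what can be read of those genes, and groups of 2 arrays were too small to screen for outlying arrays.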
